A study of Arabidopsis thaliana with 19 samples.

Results

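Polycomb repressive complex 2 (PRC2) is the enzyme that places methyl groups on lysine 27 of histone H3, and the 8 Arabidopsis thaliana genes for its subunits were examined in sperm chromatin. They were CLF (AT2G23380), SWN (AT4G02020), MEA (AT1G02580), EMF2 (AT5G51230), VRN2 (AT4G16845), FIS2 (AT2G35670), FIE (AT3G20740) and MSI1 (AT5G58230). They were chosen by locus identifier, and all 8 were found among 27444 nuclear protein-coding genes. Each was described by the called peaks over the gene and 500 bp on either side.

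The series mapped histone H3 marks by ChIP-seq in sperm nuclei of ecotype Col-0. Every sample came from plants with an HTR10-Clover fusion under the HTR10 promoter, whose fluorescence was used to sort the nuclei, and the genotype is otherwise given as wild type; no treatment, mutant or other cell type was included. The active marks H3K4me3 and H3K27ac were each precipitated 3 times, and the other marks H3K27me1 and H3K27me3 each 2 times. By the sample descriptions, these 10 samples came from input set A, with preparations 1, 2 and 3 used for the active marks, 1 and 3 for H3K27me1, and 2 and 3 for H3K27me3; input set B belonged to H3.10. The 9 further samples, H3.10 and its inputs and the inputs of the 4 marks, were not analysed here on their own. The peaks were listed once per mark over its replicates. Values therefore carry no error between replicates, none could be tested across samples, and the depth per sample is unknown.

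PRC2 has a core of 4 kinds of subunit. A SET-domain methyltransferase carries out the reaction, a zinc finger protein with a VEFS box and the WD-repeat protein FIE are needed for activity, and the WD-repeat protein MSI1 binds histones. In plants the methyltransferase and the zinc finger subunit come in several forms. CLF and SWN work with EMF2 and VRN2 in the plant body, where they hold flowering and organ identity genes silent. MEA and FIS2 work with FIE and MSI1 in the female gametophyte and endosperm, and both are known as imprinted genes expressed from the maternal allele. H3K4me3 and H3K27ac are marks of transcribed genes, H3K27me3 is the product of PRC2, and H3K27me1 is common in heterochromatin.

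The 8 genes fell into 2 patterns. CLF, SWN, EMF2, VRN2, FIE and MSI1 had H3K4me3 over or near a gene end. H3K27ac lay near that end in 5 of them, and in SWN only in the flank of its opposite end. These 6 had no other mark. MEA and FIS2 had neither H3K4me3 nor H3K27ac. A gene was called marked when at least 150 bp of the gene and its 500 bp flanks lay under peaks. H3K4me3 marked 6 of the 8 in the narrow list, against 79.4% of all protein-coding genes. H3K27ac marked the same 6, against 62.2% of all genes, and 59.9% of all genes had both. With 8 genes, counts of 6 lay near these shares and show no excess of either mark. FIS2 had H3K27me1 (1 of 8, against 9.96% of all genes in the broad list and 30.3% in the narrow list). None of the 8 had H3K27me3, which marked 4.44% of all genes in the broad list and 1.55% in the narrow list.

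**Figure D1:**
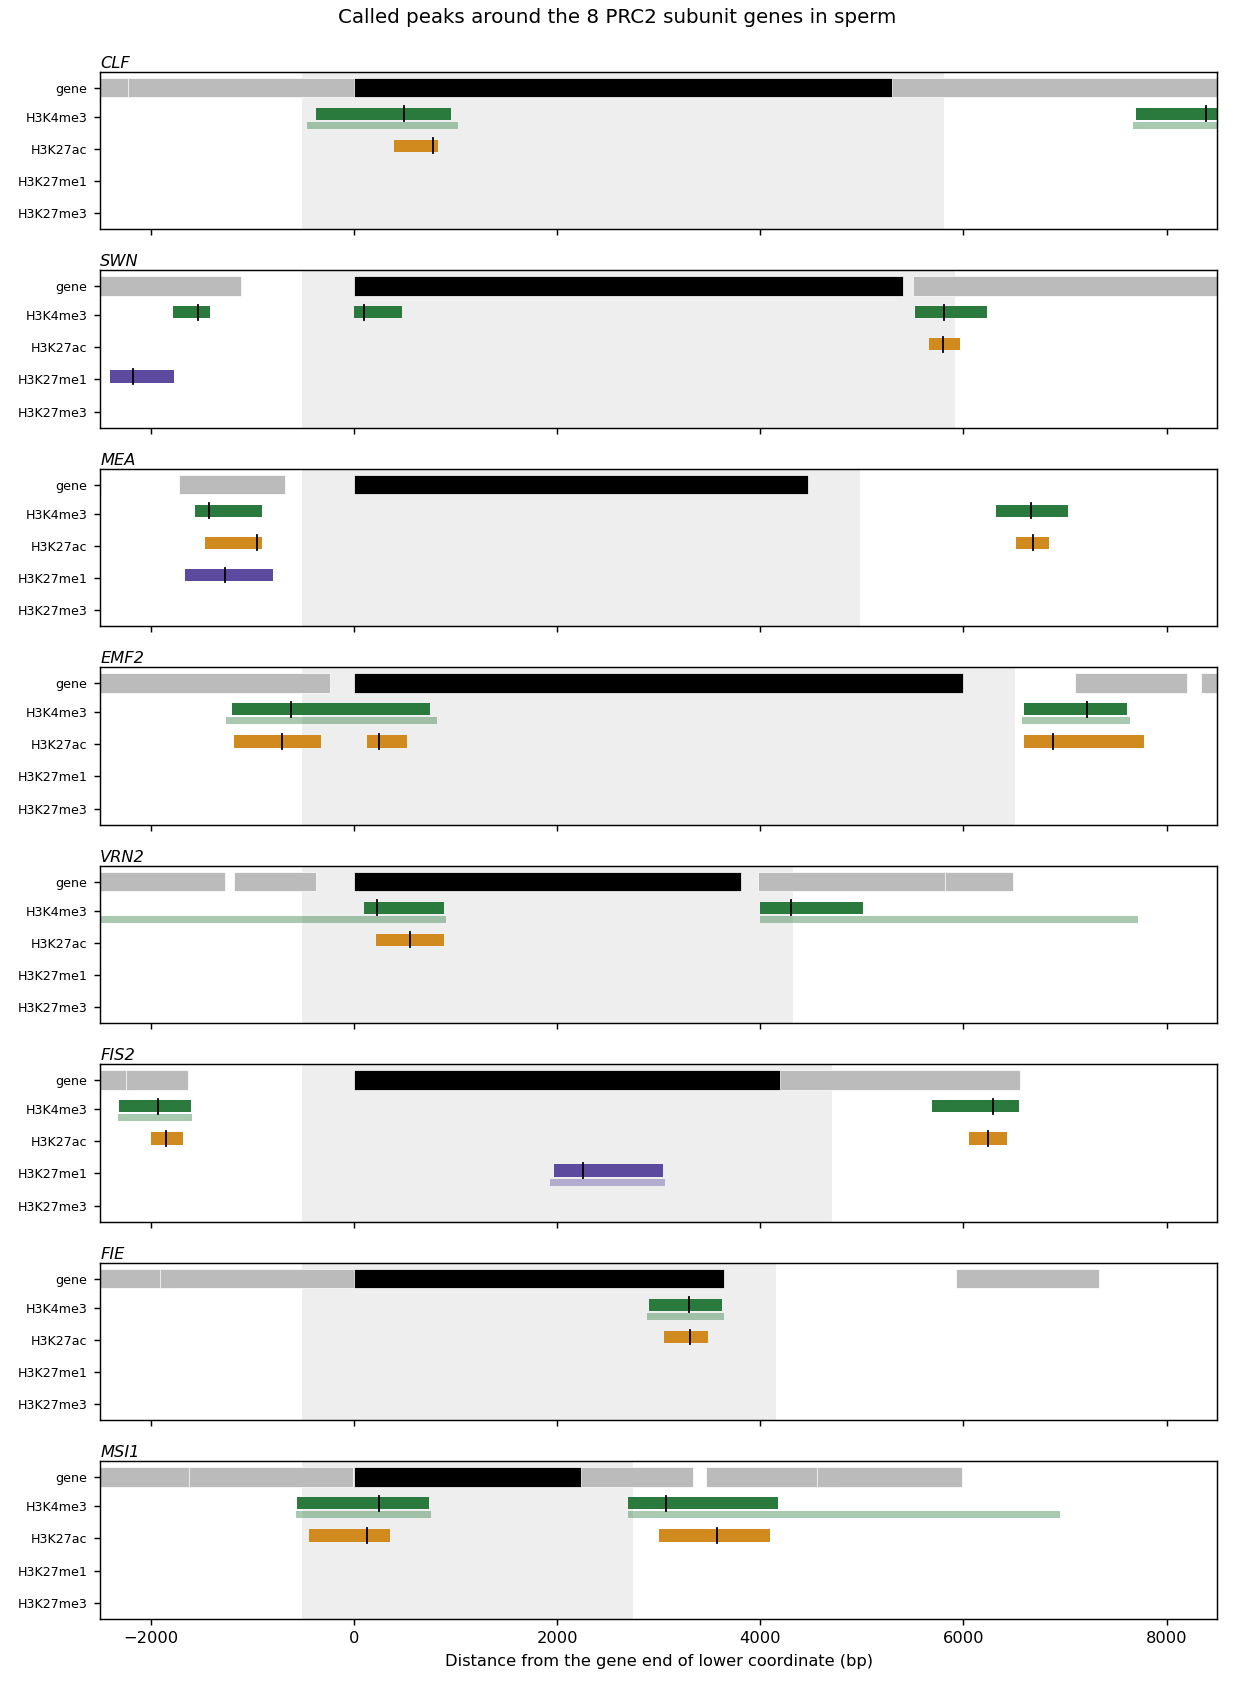
Called peaks around each gene, by distance in bp from the gene end of lower coordinate. Black bars are the named genes and grey bars other protein-coding genes, the grey field is the gene with 500 bp on either side, thick bars are narrow peaks with the summit as a black tick, and thin pale bars are broad peaks. Over the gene itself H3K4me3 lay near 1 end of 6 genes, further H3K4me3 peaks over neighbours reached the grey field at the opposite end of SWN, VRN2 and MSI1, MEA had no peak within the grey field, and FIS2 had H3K27me1 in its interior.

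Each of the 3 methyltransferase genes had a pattern of its own: CLF both active marks, SWN H3K4me3 alone over the gene, and MEA none. CLF had 1 narrow H3K4me3 peak on chromosome 2 from 9954716 to 9956051 (all peak coordinates are TAIR10). Its fold, the ratio over control that the authors give for each peak, was 3.74 with a −log10 q of 71.6. The peak covered 960 bp of CLF and 434 bp of AT2G23370, which overlaps CLF by 58 bp, and its summit lay 493 bp inside CLF. The H3K27ac peak of CLF, from 9955490 to 9955915, was weak. Its fold was 1.37 with a −log10 q of 2.42, and only 0.984% of the genes with H3K27ac over the gene span had a lower fold. Among the 6 marked genes CLF thus paired a middling H3K4me3 fold with the lowest H3K27ac fold.

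SWN, the other methyltransferase gene of the plant body, had a small H3K4me3 peak on chromosome 4 from 886575 to 887048, with a fold of 2.67, a −log10 q of 29.1 and its summit 102 bp inside the gene. Its 474 bp were wider than only 8.72% of H3K4me3 peaks. A second H3K4me3 peak from 892107 to 892813, with a fold of 3.60 reached into the 500 bp flank but held no base of SWN, since all of its 707 bp lay in the neighbour AT4G02030. The only H3K27ac peak of the window (fold 1.75, 892245 to 892544) also lay wholly in that neighbour. Over its own span SWN therefore had H3K4me3 without H3K27ac.

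MEA had no base under a peak of any of the 8 lists within the gene or its flanks. Such a gene was uncommon: 1714 of the 27444 genes (6.25%) had none, and 2.59% of those with a span in the range of the 8 genes, 2234 to 6001 bp. The nearest peaks lay over the neighbour AT1G02575. H3K27me1 ended 797 bp from MEA with a fold of 3.15, higher than in 95.4% of narrow H3K27me1 peaks. H3K4me3 (fold 2.15) and H3K27ac (fold 1.50) both ended 902 bp from the gene. On the other side the first H3K4me3 peak began 1850 bp away, with a fold of 4.98. That peak lay over no protein-coding gene, so called marks on a protein-coding neighbour were found on 1 side of MEA.

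The zinc finger subunits divided in the same way, with EMF2 and VRN2 marked and FIS2 not. EMF2 lay under 1 H3K4me3 peak on chromosome 5 from 20822444 to 20824392, with a fold of 4.14 and a −log10 q of 87.4. At 1949 bp it was wider than 94.6% of H3K4me3 peaks and was shared with the neighbour AT5G51220: 749 bp lay in EMF2 and 968 bp in the neighbour, where the summit was. Within it H3K27ac had 2 separate peaks, 1 of them over each gene. The peak over AT5G51220 had a fold of 1.79, and the peak in EMF2, from 20823768 to 20824170, had 1.67. The fold of the shared H3K4me3 peak cannot be assigned to either gene.

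VRN2, which acts in the response to winter cold, had an H3K4me3 peak of its own on chromosome 4 from 9476168 to 9476957, with a fold of 2.77 and a −log10 q of 33.0. H3K27ac covered 670 bp of the same stretch, from 9476288 to 9476957, with a fold of 1.56. Both peaks ended at the same base. The other H3K4me3 peak in its window (fold 2.18) lay entirely in the neighbour AT4G16850. Over the gene span, 20.2% of the genes with H3K4me3 and 13.7% of those with H3K27ac had a lower fold than VRN2.

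FIS2 had 1 peak in each H3K27me1 list and none in the other 6 lists. The narrow peak ran on chromosome 2 from 14994538 to 14995602, with a fold of 1.96 and a −log10 q of 6.48, and the broad peak from 14994493 to 14995622, with a −log10 q of 4.19. The summit lay 2252 bp from one end of the gene and 1939 bp from the other, so this was an interior peak, over 25.4% of the gene span in the narrow list and 26.96% in the broad list. By fold it was a modest peak, above 27.7% of the narrow H3K27me1 peaks. The nearest H3K4me3 peaks lay on both sides, 1503 bp away in AT2G35680 (fold 4.04) and 1602 bp away over CTF2A (AT2G35660) and AT2G35658 (fold 5.92). MEA and FIS2 were together the 2 of 8 with neither H3K4me3 nor H3K27ac, against 18.4% of all genes and 9.71% of genes in the same range of span.

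The WD-repeat subunits, which are shared by all forms of the complex, had the highest folds of both marks. FIE had an H3K4me3 peak on chromosome 3 from 7251715 to 7252435, with a fold of 5.31 and a −log10 q of 145, and an H3K27ac peak from 7251863 to 7252294 with a fold of 2.05 and a −log10 q of 13.8. Both lay wholly inside FIE, at the end away from its overlapping neighbour AT3G20730. MSI1 had an H3K4me3 peak on chromosome 5 from 23555451 to 23556751 with a fold of 4.83 and an H3K27ac peak from 23555564 to 23556371 with 2.01. Both crossed the gap of 10 bp into TTL (AT5G58220), with their summits 245 bp and 129 bp inside MSI1. A second H3K4me3 peak in the window of MSI1 (fold 4.30) held no base of the gene and lay over FHIT (AT5G58240) and EMB3143 (AT5G58250).

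Counted over the gene span alone, H3K4me3 remained on 6 of 8 (75.2% of all genes) and H3K27ac on 5 of 8 (55.9% of all genes; both marks, 53.5%), with SWN the gene lost. The order of H3K4me3 folds over the span was FIE, MSI1, EMF2, CLF, VRN2 and SWN. EMF2 is placed by the fold of the peak it shares with AT5G51220, whose summit lay outside EMF2. That fold also enters the H3K4me3 median of the members below. The share of H3K4me3 genes with a lower fold was 79.0% for FIE, 67.9% for MSI1, 51.2% for EMF2, 41.9% for CLF and 17.8% for SWN. The order of H3K27ac folds was FIE, MSI1, EMF2, VRN2 and CLF, with 82.4% of H3K27ac genes below FIE, 79.1% below MSI1 and 29.8% below EMF2. FIE and MSI1 came first for both marks and CLF and VRN2 changed places. With no replicate error, whether neighbours in these orders differ could not be tested. The medians over the marked members were 3.94 for H3K4me3 (all marked genes 4.09) and 1.67 for H3K27ac (all marked genes 1.80).

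**Figure D2:**
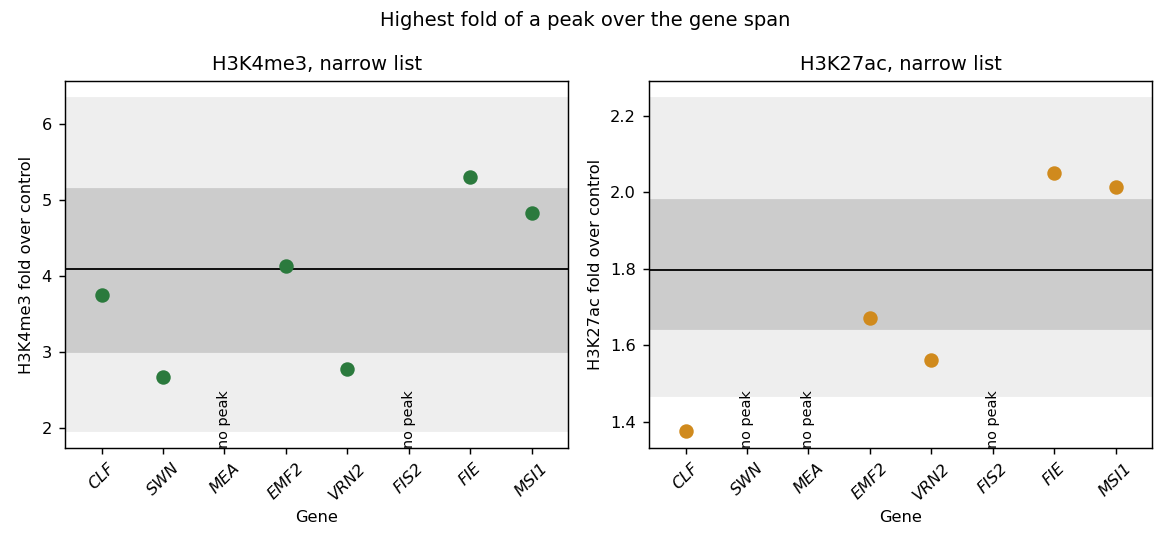
Highest fold over control of a narrow peak touching the gene span, for H3K4me3 (left) and H3K27ac (right). Points are the genes with at least 150 bp of span under peaks, the line is the median of all such protein-coding genes, and the dark and pale bands hold their middle 50% and 90%; the axes do not start at 0. FIE and MSI1 had the highest folds of both marks, and CLF had an H3K27ac fold of 1.37, below the pale band. The H3K4me3 point of EMF2 is the fold of a peak shared with AT5G51220, with its summit outside EMF2.

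Where both active marks occurred they lay together. All 7 H3K27ac peaks in the 8 windows lay entirely inside an H3K4me3 peak. Of all 19545 H3K27ac peaks, 16693 touched an H3K4me3 peak, a looser measure than lying inside it. The summits of the marks were 15 bp apart at FIE, 18 bp at the peak beside SWN, 92 bp at the outer EMF2 peak and 116 bp at MSI1. They were further apart at CLF (281 bp), VRN2 (327 bp) and the inner EMF2 peak (864 bp). Over all 16693 H3K27ac peaks that touched an H3K4me3 peak, the median distance was 70 bp, with quartiles of 20 and 193 bp. Inside the genes, H3K4me3 summits lay 102 bp (SWN) to 493 bp (CLF) from the nearest gene end, and the median over all H3K4me3 summits, to the nearest end of any protein-coding gene, was 369 bp. The gene table used here gives no strand, so these ends are not named as starts.

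The marks covered a small part of the window at most of these genes. The window includes the flanks, so part of this coverage lay in neighbours, as all of the H3K27ac at SWN did. H3K4me3 lay over 39.4% of the window at MSI1, the shortest gene, 22.9% at VRN2, 21.2% at CLF, 17.8% at EMF2, 15.5% at FIE and 13.3% at SWN. The median of these 6 was 19.5%, against 30.5% over all genes with H3K4me3. H3K27ac covered 24.98% at MSI1, 13.9% at VRN2, 9.30% at FIE, 8.27% at EMF2, 6.77% at CLF and 3.79% at SWN, with a median of 8.79% against 19.1%. The 8 genes had a median span of 4331 bp, longer than the 2078 bp of all protein-coding genes, which lowers a share of the window for peaks of one size. In genes of the same range of span, H3K4me3 marked 88.6% and H3K27ac 71.6%.

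**Figure D3:**
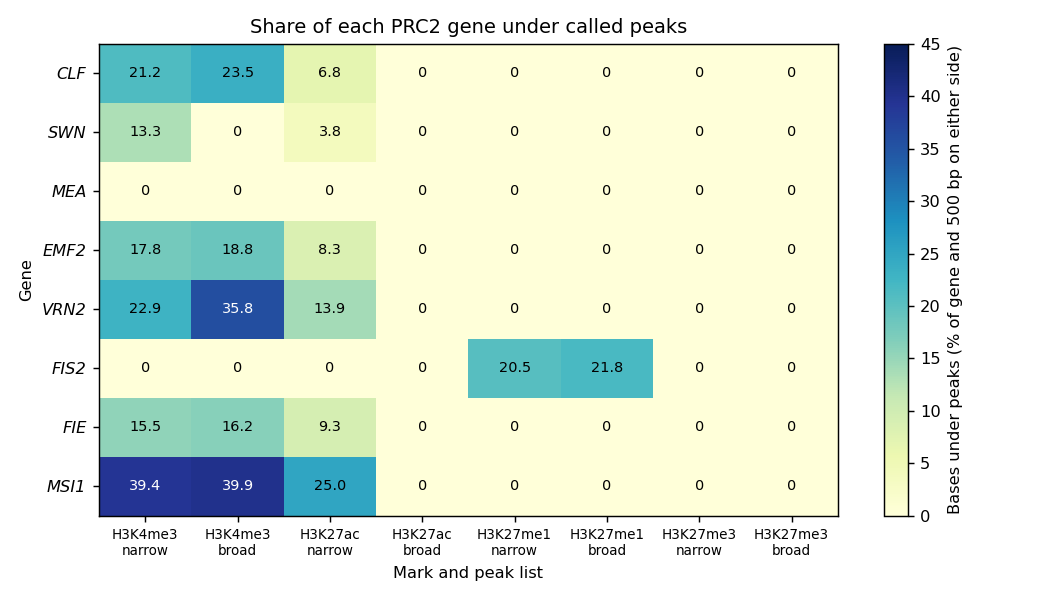
Bases under called peaks as a percent of the gene with 500 bp on either side, for the 8 genes (rows) in the 8 peak lists (columns). MEA was at 0 in all lists, FIS2 had values in the H3K27me1 lists alone, and MSI1 had the highest values for H3K4me3 and H3K27ac.

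The broad lists divided the genes in the same way for H3K4me3, apart from SWN. H3K4me3 marked 5 of 8 in the broad list (64.3% of all genes), since SWN had no broad peak within 5068 bp. No member lay under a peak of the broad H3K27ac list, which has only 163 peaks and marked 0.645% of all genes. Over VRN2 the broad H3K4me3 peak was 5819 bp wide and ran across AT4G16830, AT4G16835 and AT4G16840, with 907 bp in VRN2. The broad folds did not follow the order of the narrow ones. FIE had 1.32, CLF 1.67, MSI1 1.60, EMF2 1.28 and VRN2 1.13 for the peak over the gene, and they are not used further.

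No H3K27me3 peak was called near a PRC2 gene either. The nearest broad H3K27me3 peak lay 24875 bp from SWN, 35800 bp from FIE, 48293 bp from MSI1, 53434 bp from MEA, 61344 bp from CLF, 81028 bp from VRN2, 86499 bp from FIS2 and 139593 bp from EMF2. The median of 57389 bp compares with 30198 bp over all protein-coding genes. In the narrow list the distances ran from 36024 bp (FIE) to 366952 bp (MSI1), with a median of 113112 bp against 94493 bp over all genes. The narrow H3K27me3 list has no peak of a fold under 2.88, and the broad list has none under 1.09. These values describe called peaks, and H3K27me3 too weak to be called at these genes was not measurable from them. For H3K27me1 the nearest narrow peak outside FIS2 lay 797 bp (MEA) to 9140 bp (MSI1) from the gene.

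Other genes of the same pathways were compared as lists. All 29 genes of 4 lists had H3K4me3 in the narrow list, against 79.4% of all genes and 88.6% of genes in the range of span of the PRC2 members: 4 further MSI genes, 11 PRC1 and vernalization partner genes, 5 H3K27 demethylase genes, and 9 genes for H3K27me1 or H3K4 methyltransferases. Of the 37 genes with the PRC2 members included, MEA and FIS2 were thus the 2 without it. In the broad list H3K4me3 marked 18 of the 29 (64.3% of all genes). H3K27ac marked 25 of the 29 (62.2% of all genes), among them the 4 further MSI genes and the 9 methyltransferase genes. The median H3K4me3 fold of the 29 was 5.07, compared with 3.94 for the 6 marked PRC2 genes and 4.27 for all marked genes, each by the highest fold in the window. FIE, at 5.31, was the PRC2 gene above that median of 5.07. The H3K4me3 folds of the MSI1 relatives were 5.22 at MSI2 (AT2G16780), 5.16 at MSI3 (AT4G35050), 6.10 at MSI4 (AT2G19520; FVE) and 3.66 at MSI5 (AT4G29730), on both sides of the 4.83 of MSI1.

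A few named genes of the other classes carried H3K27me3 or H3K27me1. H3K27me3 lay on 3 of the 29 in the broad list (4.44% of all genes). They were the demethylase genes JMJ13 (AT5G46910) and JMJ32 (AT3G45880) and the H3K4 methyltransferase gene ATX4 (AT4G27910). In the narrow list H3K27me3 lay on 1 of the 29, JMJ13 (1.55% of all genes). H3K27me1 lay on none of the 29 in the broad list (9.96% of all genes) and on 5 in the narrow list (30.3%). These 5 were RING1A, BMI1C, EMF1, VRN5 and JMJ30, all of which also had H3K4me3. FIS2 was the 1 gene of the 37 with H3K27me1 and no H3K4me3. The share of all genes with H3K27me1 and no H3K4me3 was not computed, so how common this is remains unknown. Of 12 classical PRC2 target genes, 9 had H3K4me3 (79.4% of all genes) and 6 had H3K27ac (62.2%) in the narrow lists. In the broad lists 3 had H3K27me1 (AG, LEC2 and WUS; 9.96% of all genes) and 2 had H3K27me3 (ABI3 and PHE1; 4.44%). Narrow H3K27me3 peaks marked 1 of the 12, ABI3 (1.55% of all genes). In the narrow list H3K27me1 lay on 4 of the 12, AG, STM, FUS3 and ABI3 (30.3% of all genes), and STM, like FIS2, had no H3K4me3. These lists are small and no test was made of them.

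**Figure D4:**
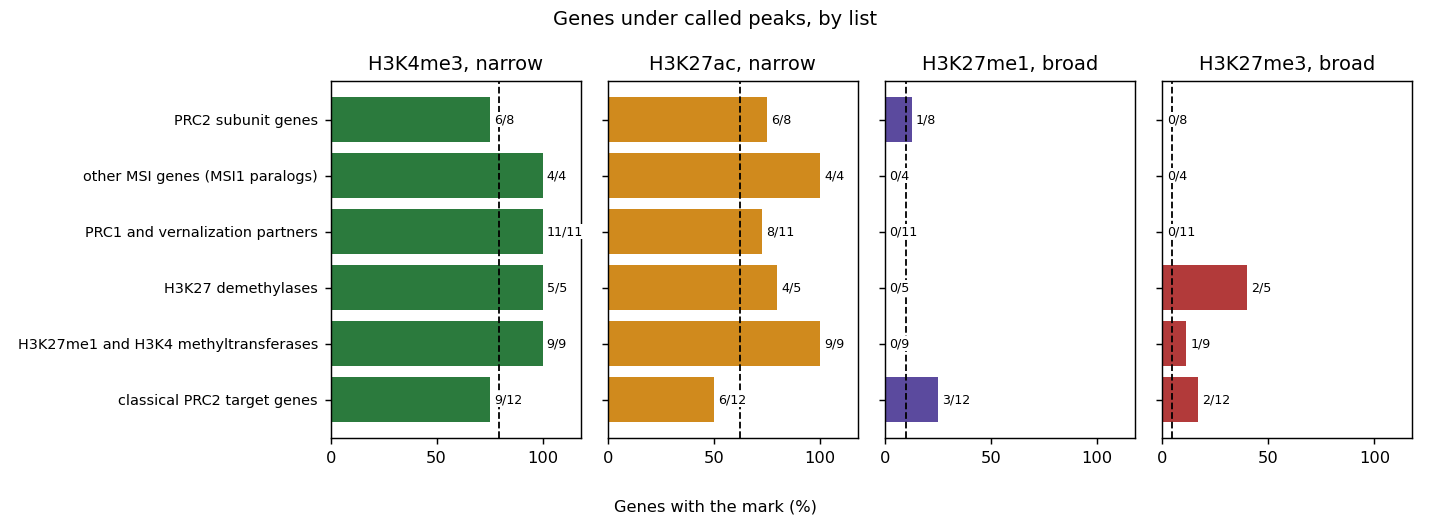
Percent of genes in each list with at least 150 bp of the gene and 500 bp on either side under peaks, with narrow lists for the active marks and broad lists for the others. Numbers are genes with the mark over genes in the list, and the dashed line is the share of all 27444 protein-coding genes. The PRC2 genes had H3K4me3 on 6 of 8, and the 4 lists directly below them on all members.

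As a check of the cells, the 6 sperm genes HTR10, DUO1, HAP2, GEX2, DAZ1 and DAZ2 all had H3K4me3 and H3K27ac, as did 59.9% of all genes. Of 4 genes of the pollen vegetative cell, all had H3K4me3 (79.4% of all genes) and 3 had H3K27ac (62.2%). H3K27me1 lay on 3 of the 4 in the narrow list, VGD1, ANX2 and VEX1 (30.3% of all genes). In the broad list it lay on 1 of the 4, VGD1 (9.96%). H3K27me3 lay on VGD1 and ANX2 in both lists (4.44% of all genes in the broad list, 1.55% in the narrow list). Of the central cell and endosperm genes FWA and PHE1, both had H3K4me3 and H3K27ac (59.9% of all genes), which MEA and FIS2 lacked. The highest H3K4me3 fold in the window was 1.68 at FWA and 3.23 at PHE1, against a median of 4.27 over all marked genes. PHE1 had no H3K4me3 in the broad list. FWA also had H3K27me1, as FIS2 did, over 66.2% of its window in the broad list and 17.5% in the narrow list, and PHE1 had H3K27me3 over 22.6% in the broad list. H3K4me3 calls thus do not tell the sperm from the other cell types, and the part of other nuclei in these values was not tested.

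Likeness between genes was measured as the Euclidean distance over the percent of the window under peaks in each of the 8 lists. Within PRC2, EMF2 and FIE were the closest pair at 3.58 percentage points, followed by CLF and EMF2 at 6.02, and FIS2 and MSI1 were the furthest apart at 68.3. CLF and SWN, the 2 methyltransferases of the plant body, were 24.97 apart. By this measure MEA was nearer to SWN, at 13.9, than to FIS2, at 29.9, and SWN was nearer to MEA than to CLF, so coverage alone did not group MEA with FIS2. Outside PRC2, the nearest gene was AT1G16570 for CLF (0.939), AT5G49470 for SWN (0.716), AKINBETA1 (AT5G21170) for EMF2 (0.412) and AT1G11480 for VRN2 (0.825). It was AT4G22475 for FIS2 (1.00), MES6 (AT2G23550) for FIE (0.239) and AT4G12690 for MSI1 (0.274). MEA was at distance 0 from 1713 genes, all without a peak. Among 27444 genes a near match in coverage is common, and these distances describe the peak lists alone.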

How the data were processed

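The deposited files were 8 peak lists, 4 narrow and 4 broad, with 1 of each kind per mark. Per the submitters' processing notes, the build was TAIR10 and the tools included MACS2 2.1.0, Bowtie2 2.1.0, deepTools 2.5.0.1, Trim Galore 0.4.1 and SAMtools 1.3, whose roles and settings are not given in these sources. For each peak the authors deposited a fold (a ratio to the expected control), a −log10 q, a score that restates the −log10 q, and for narrow peaks the summit offset. Peak starts were turned to counts from 1. Gene spans came from a RefSeq table of TAIR10.1. A common frame was checked with H3K4me3 summits moved by steps of 250 bp to at most 5000 bp; the share of summits inside genes was highest with no shift in each of 59 segments of 2 Mb. Gene coordinates are not given.

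The main lists were the narrow ones of the active marks and the broad ones of H3K27me1 and H3K27me3. No tests were made: counts are set beside the same share of all protein-coding genes. Coverage code was tested on simulated data. All 8 members are named, with the nearest nonmember gene of each; genes of other lists are named where 5 or fewer carry a mark, and MSI2 to MSI5 were named after their values were seen. The members and lists were chosen with earlier results of these data known. Python 3.11.15, numpy 2.4.6, pandas 2.3.3 and matplotlib 3.10.9 were used.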

Additional observations from a re-analysis of the deposited data

How the results depend on the processing

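The counts of PRC2 genes with each mark were recomputed with the other peak list, minimum overlaps of 1 and 300 bp, the gene span alone, flanks of 1000 bp, and peaks of −log10 q of at least 5. H3K4me3 marked 5 or 6 of 8 in all of these and H3K27me3 0 of 8. For H3K27me3 only the narrow list, the 1 bp overlap and the 1000 bp flanks could have raised the count. The stricter settings could only keep it at 0. H3K27ac marked 5 or 6, except 0 in the broad list of 163 peaks. It was 5 with 300 bp or the gene span alone, where SWN was lost, and 5 at −log10 q of at least 5, where CLF was lost. H3K27me1 marked 1 (FIS2), except 0 at −log10 q of at least 5, because its broad peak has 4.19; its narrow peak has 6.48. Over the gene span alone the H3K4me3 fold of SWN was 2.67 in place of 3.60 and the H3K27ac fold of EMF2 1.67 in place of 1.79. The share of all genes in the same range of span was an alternative chosen after seeing the data. No paired analysis was possible because the peaks of a mark are listed once over its replicates, and for the same reason no replicate could be left out. Low-fold H3K27me3 may be missing from the lists, and 1047 of the 1423 broad H3K27me3 peaks have a q over 0.05.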
